A study of Mus musculus with 7 samples.

Results

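The locus around Prrx1 was examined in peak lists from chromatin immunoprecipitation followed by sequencing (ChIP-seq) of mouse embryos. Its members were the peaks whose midpoint lay between 164.8 and 166.0 Mb of chromosome 1 in build mm9, a window of 1.2 Mb around the gene. Of 82921 peaks in 3 lists, 137 were members: 84 of 33915 for Shox2 in limb, 24 of 15091 for Shox2 in palate and 29 of 33915 for Pbx in limb. The window was chosen because it was already known to be crowded with sites of Shox2 and Pbx. Its counts and overlaps are therefore given as descriptions, without tests.

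All tissue was freshly dissected at E12.5 (stages are given in embryonic days, E). Shox2 was precipitated from embryonic limb and from embryonic palate of animals labelled Shox2-HA, with an antibody against the HA epitope, and Pbx from embryonic limb with an anti-Pbx antibody. Each of these groups had 1 library, so no value has a replicate error, and the number of embryos behind a library is not stated. The other 4 libraries of the series (limb Shox2 at E13.5, Shox2 from mixed limb and palate, the input, and the anti-HA ChIP of embryos without the tag) were not analysed here. The lists give positions only, with no height, score or read count, so the depth is unknown, and the absence of a site from one of them does not show that it was free of the factor.

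Prrx1 (paired-related homeobox 1, also called Prx1 or mHox) encodes a homeodomain transcription factor of embryonic mesenchyme, needed for the skeleton of the limbs and of the head, palate included. A regulatory fragment of this gene is widely used to drive Cre in limb bud mesenchyme. Shox2 is a homeodomain factor needed for the proximal limb skeleton and for the anterior palate. Pbx proteins are homeodomain factors of the TALE class, which often bind DNA in complexes with other homeodomain proteins.

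The gene span given with the locus, near 165.18 to 165.24 Mb, is rounded to 10 kb. In RefSeq (GRCm38.p6) Prrx1 lies on the minus strand, so the gene starts at the upper end of the span. Positions beyond that end are called upstream here, and those below the span downstream. By name and order alone, the protein-coding neighbours on the upstream side in RefSeq are Gorab, which encodes a Golgi protein, then Mettl11b, and then Kifap3, a subunit of the kinesin-2 motor. On the downstream side the nearest is Mroh9. Their places in mm9 were not used, so no peak is assigned to them.

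The bases just before the gene start are shown because the palate positions nearest to Prrx1 fell at that end of the span. The 250 bases are from RefSeq, GRCm38.p6, chr1:163313651-163313900, minus strand, and capitals mark a match to TAATTA, the core bound by many homeodomain proteins.
Prrx1: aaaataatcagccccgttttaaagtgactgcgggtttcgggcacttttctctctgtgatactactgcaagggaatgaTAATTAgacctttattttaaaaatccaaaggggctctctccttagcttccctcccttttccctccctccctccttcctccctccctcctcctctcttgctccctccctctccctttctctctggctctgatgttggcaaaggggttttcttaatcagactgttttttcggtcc
The match begins at position -173, with -1 the base before the gene start. Both strands of the 300 bases in the table, which run on into the gene, were searched, and TAATTA was found once. It occurs in 5.29% of the 32851 RefSeq promoters of this length. The P3 palindrome bound by pairs of homeodomain proteins of the paired class (0.487% of promoters), the Pbx motifs TGATTGAT (0.746%) and TGATNNAT (8.85%), where every TGATTGAT is also a TGATNNAT, and the Meis motif TGACAG (19.2%) were not found in it. These matches describe letters in this stretch and not bound sites. The sequences of the peaks themselves were not read, since no mm9 genome was used.

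Shox2 limb peaks ran through most of the locus, on both sides of Prrx1. For a background, the genome was cut into tiles of 1.2 Mb, and tiles without peaks were left out. Over the remaining 2122 tiles, medians were 13 for Shox2 limb peaks, 6 for palate positions and 12 for Pbx peaks. The 95th percentiles were 43, 19 and 43. The Prrx1 window held 84, 24 and 29. Its counts from both Shox2 lists were thus above the 95th percentile, and its Pbx count was above the median but below that percentile. Upstream of the span lay 58 Shox2 limb peaks in 760 kb (7.63 per 100 kb), within it 4 in 60 kb (6.67 per 100 kb), and downstream 22 in 380 kb (5.79 per 100 kb). Pbx peaks were placed more unevenly, with 23 upstream (3.03 per 100 kb), 1 within the span (1.67) and 5 downstream (1.32). Palate positions numbered 15 upstream (1.97 per 100 kb), 1 within (1.67) and 8 downstream (2.11). The 2 limb lists are equal in length, and the window held 2.90 Shox2 limb peaks for each Pbx peak. In the windows around the other dense loci below this ratio was 2.81 on chromosome 3, 1.54 on chromosome 14 and 2.21 on chromosome 9. An excess of Shox2 limb peaks was thus not particular to Prrx1.

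**Figure D1:**
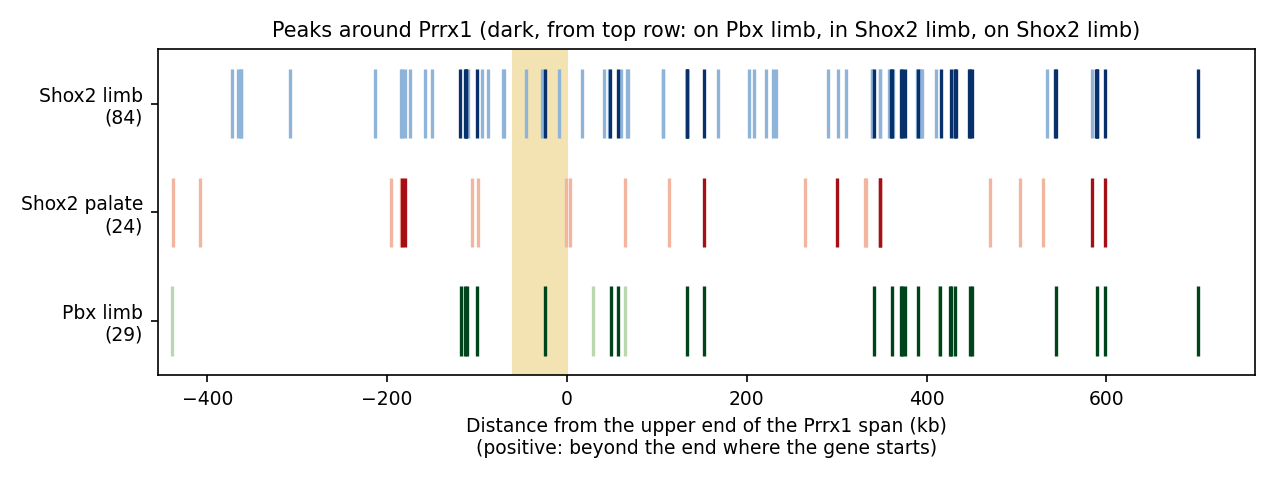
Positions of the peaks of the 3 lists along the locus, as distance in kb from the upper end of the Prrx1 span (shaded); 1 vertical line is 1 peak, dark where it overlaps the Pbx limb list (top row) or the Shox2 limb list (lower rows). Of the 29 Pbx peaks 25 are dark, and of the 24 palate positions 8 are dark.

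Within the Prrx1 span the Shox2 limb list held 4 peaks and Pbx 1. The Shox2 limb peak at chr1:165215543-165216432 was 890 bp wide and stood at 4.94% of the list, counted in file order from the top. It lay wholly within the only Pbx peak of the span, chr1:165215282-165216815, with the centres 61 bp apart. The other Shox2 limb peaks of the span, at chr1:165194591-165194833, chr1:165212006-165212364 and chr1:165231501-165231712, met neither Pbx nor a palate position. They stood at 34.5%, 19.3% and 31.4% of the list. The span thus held 1 site shared by both limb lists.

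In palate, Shox2 had 1 position within the span, at chr1:165239076, at 6.84% of its list. It lay 7364 bp from the nearest Shox2 limb peak and 22261 bp from the nearest Pbx peak. A further palate position at chr1:165243726 lay 3.73 kb beyond the span's upper end, low in the list at 91.5%. Both are at the end where the gene starts. With a span rounded to 10 kb, neither can be placed inside or outside the gene. On the upstream side, the nearest Shox2 limb peak lay 17.1 kb from the span, and the nearest Pbx peak lay 29.1 kb away and met no Shox2 limb peak. Downstream, a pair of Shox2 limb peaks lay 10.2 and 10.6 kb from the span. The wider of them, chr1:165169115-165169595, stood at 1.69% of the list and was on no Pbx peak.

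The most crowded stretch was not at the gene but upstream of it. In bins of 100 kb, the bin from 165.6 to 165.7 Mb held 20 Shox2 limb peaks, 13 of them on Pbx, together with 12 Pbx peaks and 0 palate positions. The next most crowded, from 165.1 to 165.2 Mb at the downstream end of the gene, held 11 Shox2 limb peaks, 5 of them on Pbx, with 4 Pbx peaks and 2 palate positions. Next to the first of these, from 165.5 to 165.6 Mb, there were 9 Shox2 limb peaks with 1 on Pbx, and 6 palate positions, the most of any bin. In the whole limb list 26.5% of Shox2 limb peaks were on Pbx, and these bins were picked for their counts. Between the palate positions at 165.588 and 165.710 Mb, 121 kb without one held 21 Shox2 limb peaks, 13 of them on Pbx. This stretch takes in the fullest bin, so these are the same 13 co-occupied peaks. Of those 21 peaks, 5 stood in the first 10% of the limb list. Limb and palate libraries are 1 each, so a difference between tissues cannot be told apart from one between libraries.

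Pbx peaks were absent from long stretches in which Shox2 was listed, and from others with few or no Shox2 limb peaks. In the whole lists 73.5% of Shox2 limb peaks were on no Pbx peak, and 14.2% of palate positions lay in Shox2 limb peaks. From 165.692 to 165.783 Mb, 91.2 kb without Pbx held 1 Shox2 limb peak and 3 palate positions. From 165.839 to 165.942 Mb, 103 kb without Pbx held 0 of either. From 164.802 to 165.121 Mb, 318 kb without a Pbx peak held 12 Shox2 limb peaks and 5 palate positions, of which 2 lay in Shox2 limb peaks. From 165.392 to 165.582 Mb, 189 kb without Pbx held 11 Shox2 limb peaks and 4 palate positions, of which 1 lay in a Shox2 limb peak. The stretches of 318 and 189 kb also held the highest palate positions of the locus. The position at chr1:165059772 was number 24 of the palate list, and its Shox2 limb peak, chr1:165059535-165060086, stood at 2.45% of the limb list. The palate position at chr1:165505073 was number 171 and lay 25278 bp from the nearest Shox2 limb peak, and that at chr1:165044124 was number 195 and lay 11681 bp from one.

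**Figure D2:**
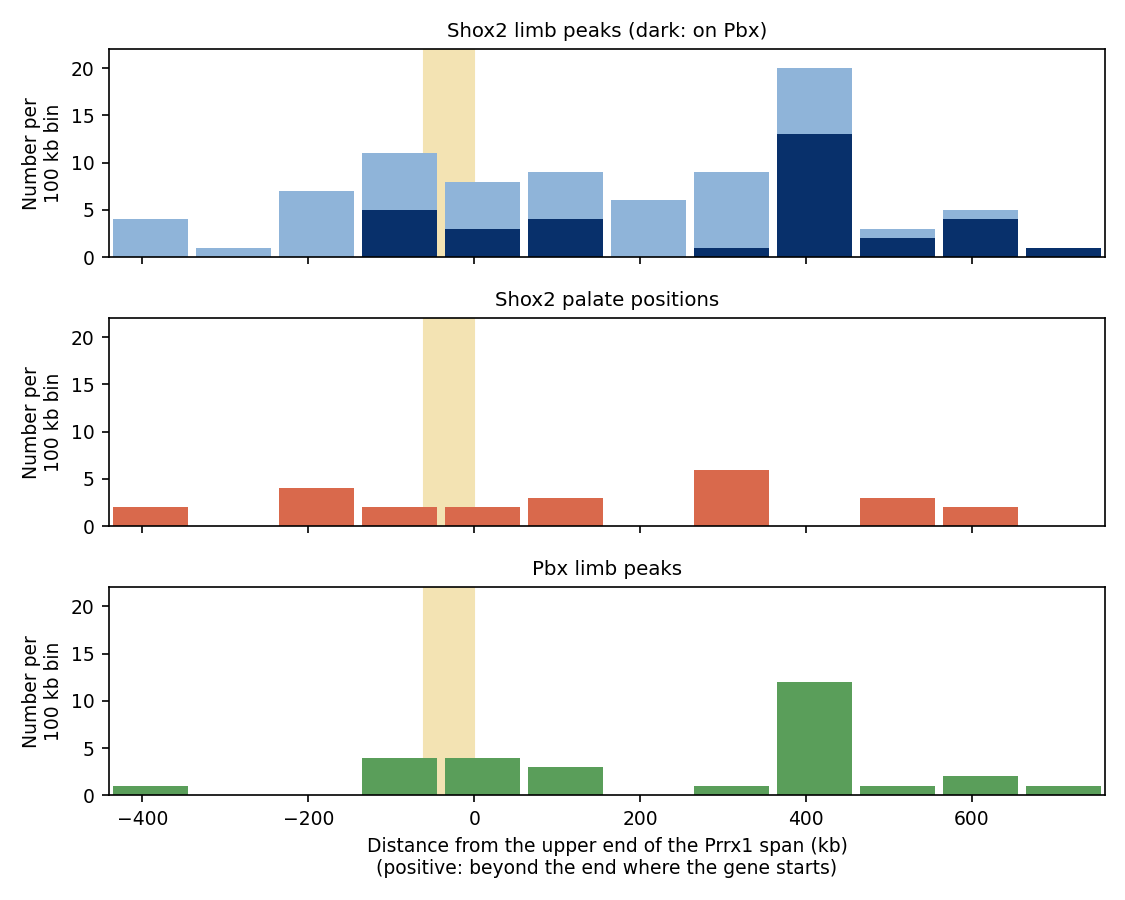
Number of Shox2 limb peaks (dark part: on Pbx), Shox2 palate positions and Pbx limb peaks in bins of 100 kb, by distance in kb of the bin's centre from the upper end of the Prrx1 span (shaded). The bin centred 410 kb upstream has the most Shox2 limb peaks (20) and Pbx peaks (12) and 0 palate positions.

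Shox2 and Pbx shared 33 of the 84 Shox2 limb peaks of the locus (39.3%, Wilson 95% interval 29.5 to 50%), against 26.5% in the whole limb list. At an equal width of 200 bp for all peaks this share was 19.0% in the locus and 16.4% in the whole list. Intervals here and below cover counting error only and treat neighbouring peaks as independent, so they are too narrow. The deposited list of co-occupied regions held the same 33 regions. From the other side, 25 of the 29 Pbx peaks (86.2%, interval 69.4 to 94.5%) overlapped a Shox2 limb peak, against 23.4% of the whole Pbx list. At 200 bp these shares were 55.2% and 16.3%. The locus was picked with its co-occupied sites known, so nothing is read from these shares. Of the co-occupied Shox2 limb peaks, 27 lay upstream of the span, 1 within it and 5 downstream. All 5 downstream sites lay between 165.121 and 165.140 Mb.

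The highest site of the locus was among them. The Shox2 limb peak chr1:165126253-165126976 was number 44 of the limb list (0.130%), and its Pbx peak, chr1:165125675-165127380, was number 1058 of the Pbx list (3.12%). The centres lay 87 bp apart, 53.4 kb downstream of the span by the Shox2 peak. The other co-occupied Shox2 limb peaks among the 5 highest were chr1:165837403-165838111 at 1.79% and chr1:165828370-165828706 at 1.87% of the list, 598 and 589 kb upstream. The rest of these 5, chr1:165169115-165169595 at 1.69% and chr1:165130003-165130615 at 1.88%, were on no Pbx peak. They lay 10.6 and 49.7 kb downstream. The highest Pbx peak of the locus was chr1:165599835-165601406, number 549 of its list, 361 kb upstream. It covered Shox2 limb peaks at 65.2% and 6.86% of their list. High places in one list thus did not always go with high places in the other.

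Of the 3 widest Shox2 limb peaks and the 3 widest Pbx peaks of the locus, all but 1 lay on shared sites. The site at chr1:165120550-165123157 is counted here from both lists. Among all peaks of the locus, 39.3% of Shox2 limb peaks and 86.2% of Pbx peaks were shared, against 26.5% and 23.4% in the whole lists. Nothing is therefore read from this count. The widest Shox2 limb peak, chr1:165666225-165667662, had 1438 bp and met a pair of Pbx peaks. The next, chr1:165120896-165122012, had 1117 bp and lay within a Pbx peak of 2608 bp that stood at only 71.5% of the Pbx list. The exception was chr1:165540023-165541075, with 1053 bp, which met no Pbx peak and held the palate position at chr1:165540264. The widest Pbx peaks had 3228 bp (chr1:165835946-165839173), 2609 bp (chr1:165686673-165689281) and 2608 bp (chr1:165120550-165123157). The median width was 317 bp for Shox2 limb peaks of the locus, against 261 bp in the whole list, and 1172 bp for Pbx, against 897 bp.

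**Figure D3:**
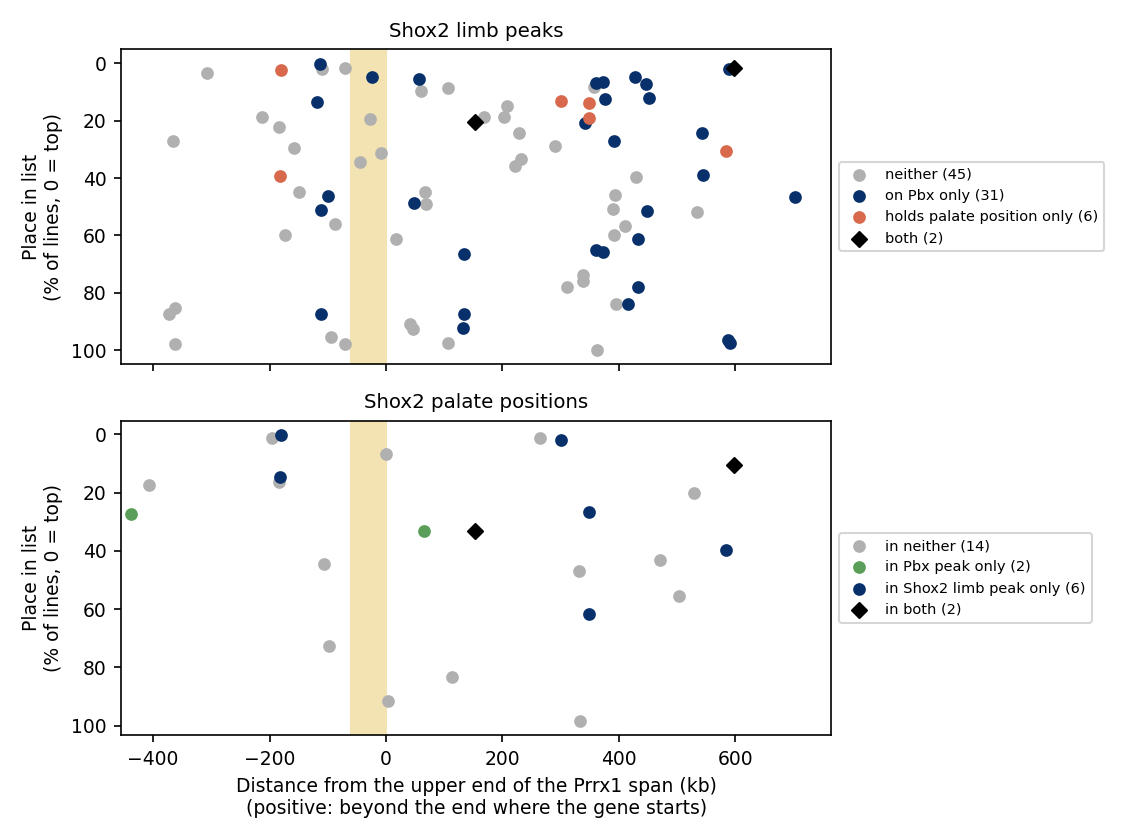
Place in the list in file order (percent of lines, 0 at the top) of Shox2 limb peaks and palate positions, against distance in kb from the upper end of the Prrx1 span (shaded). Co-occupied Shox2 limb peaks (on Pbx) lie at all heights of the list, from 0.130 to 97.3%; file order is only a possible ranking.

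Several co-occupied sites shared a Pbx peak. The 33 Shox2 limb peaks met 25 Pbx peaks, 1.32 for each, against 1.14 in the whole lists. Of the 25 Pbx peaks, 18 met 1 Shox2 limb peak, 5 met 2 and 2 met 3. Pbx peaks with at least 2 made up 28.0% (interval 14.3 to 47.6%), against 12.1% of the Pbx peaks on Shox2 in the whole list. The Pbx peak chr1:165373006-165375130 covered 3 Shox2 limb peaks, at 92.1%, 87.2% and 66.4% of their list. That at chr1:165827984-165829661 also covered 3, of which the middle one stood at 1.87% and the outer ones at 96.5% and 97.3%. Whether this goes with wider Pbx peaks or with the crowding of Shox2 peaks was not tested.

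Shox2 limb peaks low in the list were on Pbx about as often as high ones in this locus. Of the 33 in the lower 50% of the list, 13 were on Pbx (39.4%), and of the 51 in the upper 50%, 20 were (39.2%). In the whole list the shares were 18.5% and 34.6%. Of these 13 low peaks, 11 shared their Pbx peak with another Shox2 limb peak (84.6%, against 28.8% of such peaks in the whole list). For 8 of these 11 another peak there stood higher, against 739 of 902 in the whole list. The higher peak could itself lie in the lower 50%, as chr1:165128383-165128615 did at 51.0%. In the first 10% of the list, 9 of 16 peaks of the locus were on Pbx (56.2%), against 55.9% in the whole list. Some of the 33 low peaks lay in the same Pbx peak, and the locus was picked with its co-occupied sites known. Nothing is therefore read from these shares, which were not tested or set beside those of the other dense loci below.

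Most Shox2 limb peaks lay well inside their Pbx peak. Of the 33, 29 (87.9%) were wholly covered by it, against 87.5% in the whole list. The centres lay a median of 209 bp apart (quartiles 87 and 456 bp, range 3 to 785 bp), against 142 bp (63 and 289 bp) in the whole list. Where a Pbx peak held 1 Shox2 limb peak, the median over 17 sites was 103 bp, and where it held 2 or 3, the median over 16 was 432 bp. Peaks that sit side by side in 1 Pbx peak cannot all be at its centre, so these values differ in part by construction. The closest pair, 3 bp apart, was Shox2 chr1:165690857-165691350 and Pbx chr1:165690515-165691686, upstream. At the other end, Shox2 chr1:165580725-165581516 met Pbx chr1:165581516-165582295 in 1 bp, and with it counted as co-occupied the centres were 785 bp apart.

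**Figure D4:**
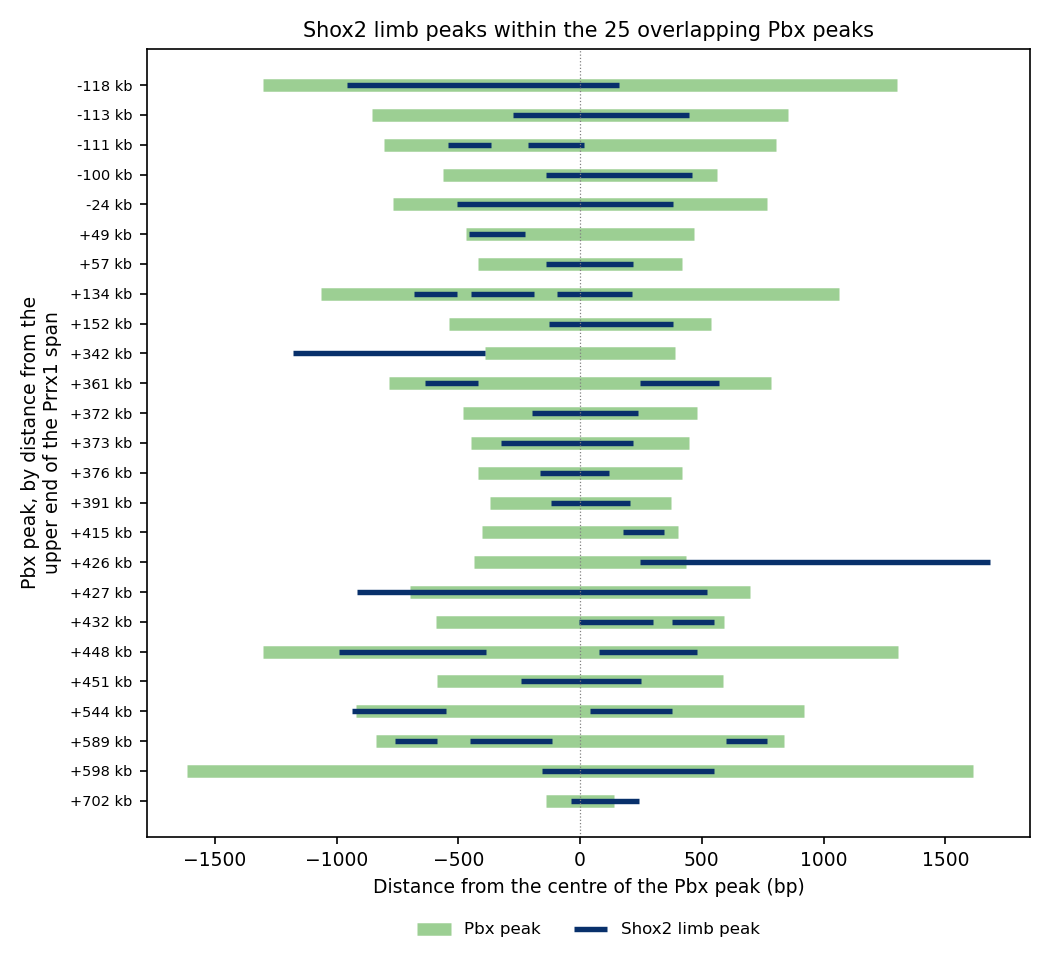
Extent of the 25 Pbx peaks that overlap Shox2 in limb (light bars) and of the Shox2 limb peaks on them (dark lines), as distance in bp from each Pbx peak's centre; rows run by distance in kb from the upper end of the Prrx1 span. In 7 rows there are 2 or 3 Shox2 limb peaks, and at 342 kb the peaks touch in 1 bp.

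Shox2 limb peaks stood close together, which follows at least in part from the choice of a crowded window with 84 of them. The distances and clusters are therefore descriptions only. They were not compared with those of the other dense loci below. Neighbouring midpoints were a median of 5.90 kb apart, against 27.1 kb in the whole list, and 37 of 83 distances were under 5 kb (44.6%, against 20.1%). Joined at under 5 kb, the 84 peaks formed 20 clusters of at least 2 peaks, with 57 peaks, and 27 lone peaks. Of the 57 clustered peaks 27 were on Pbx (47.4%, against 32.3% of clustered peaks in the whole list), and of the 27 lone peaks 6 were (22.2%, against 23.4% of lone peaks). The largest cluster, chr1:165629318-165634871, had 5 Shox2 limb peaks, of which 1 was on Pbx. The cluster chr1:165612226-165615745 had 3, all on Pbx, in 3.52 kb. That at chr1:165126253-165130615, with the highest peak of the locus, had 4 with 3 on Pbx.

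Palate and limb shared 8 Shox2 sites in the locus. The palate entries are 1 bp wide, and whether they mark summits or centres of peaks is not stated, so a palate peak could reach into a limb peak without being counted here. Of the 24 palate positions, 8 lay in a Shox2 limb peak (33.3%, interval 18.0 to 53.3%), against 14.2% of the whole palate list. From the limb side, 8 of 84 Shox2 limb peaks held a palate position (9.52%, against 6.28%). The 8 palate positions stood at 0.159 to 61.8% of their list, with a median of 20.7%, and the 16 others at 1.13 to 98.4%, with a median of 38.2%. The positions of the groups overlap widely. Within the shared peaks, the palate position lay between 15 and 285 bp from the centre of the limb peak.

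The shared sites were spread from 165.057 to 165.838 Mb, and some of them stood in pairs. A pair downstream, at 165056916 and 165059772 on chromosome 1, lay 123 and 120 kb from the span, and another palate position at 165056392 lay 228 bp outside the first of their limb peaks. Another pair lay 348 kb upstream, at chr1:165587954 and chr1:165588453, in adjoining limb peaks of 305 and 393 bp. Of the 16 palate positions outside Shox2 limb peaks, that at 165056392 was the only one within 1000 bp of such a peak (6.25%, against 8.52% in the whole list), and 10 were within 10000 bp (62.5%, against 29.6%). Their median distance was 7002 bp, against 25858 bp in the whole list, in a locus where Shox2 limb peaks are themselves closer together. The farthest, at 164832212, was 35089 bp away.

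Sites of all 3 lists numbered 2 in the locus, 2.38% of the Shox2 limb peaks, against 2.3% in the whole list. The first was the Shox2 limb peak chr1:165391405-165391912, 152 kb upstream, at 20.4% of the limb list, with the palate position at 165391597 (33.2%) and the Pbx peak chr1:165390993-165392071 (14.3%). The second was chr1:165837403-165838111, 598 kb upstream, with the palate position at 165837668 (10.4%) and the widest Pbx peak of the locus (5.91%). It stood high in all 3 lists. Of the 8 limb peaks with a palate position, the other 6 were on no Pbx peak, as were 63.3% of such peaks in the whole list. From their centres to the nearest Pbx peak it was 3990 bp for chr1:165823815-165824174, the closest, and 63669 bp for chr1:165056620-165057143, the farthest.

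Palate Shox2 positions lay on limb Pbx peaks in 4 of 24 cases (16.7%, interval 6.68 to 35.9%), against 15.6% of the whole palate list, so the locus was near the background here. Besides the 2 sites above (8.33% of palate positions, against 5.18%), these were chr1:164802290 and chr1:165304799, which lay in Pbx peaks that met no Shox2 limb peak (8.33%, against 10.4%). The position at chr1:165304799 lies 64.8 kb upstream. The remaining 14 palate positions (58.3%, interval 38.8 to 75.5%) were in no limb peak of either factor, against 75.3% of the whole palate list. Of the 4 Pbx peaks without a Shox2 limb peak, 2 thus held a palate position, against 4.78% of such Pbx peaks in the whole list. With only 4 peaks, nothing is read from this contrast. One of the 2, chr1:164800315-164802409, lay at the lower edge of the window. The other 2 of the 4 Pbx peaks met neither Shox2 list (6.90% of the 29 Pbx peaks, against 73% of the whole Pbx list). In the windows around the other dense loci below this share was 22.2% on chromosome 3, 40.4% on chromosome 14 and 23.5% on chromosome 9. The window was picked with its co-occupied sites known, and these differences were not tested.

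Windows of the same width around the other dense loci were set beside the Prrx1 window. On chromosome 3 (65.9 to 67.1 Mb), chromosome 14 (22.9 to 24.1 Mb) and chromosome 9 (86.9 to 88.1 Mb) there were 101, 88 and 75 Shox2 limb peaks, against 84 around Prrx1. The share of Pbx peaks on Shox2 was 86.2% around Prrx1, 77.8% on chromosome 3 (interval 61.9 to 88.3%), 59.6% on chromosome 14 (46.7 to 71.4%) and 70.6% on chromosome 9 (53.8 to 83.2%). The share of Shox2 limb peaks on Pbx was 39.3% around Prrx1, and 36.6%, 47.7% and 46.7% in the windows on chromosomes 3, 14 and 9. Palate positions lay in Shox2 limb peaks in 33.3% of cases around Prrx1, and in 43.5%, 25% and 43.8% in those windows. Pbx peaks on Shox2 that met at least 2 Shox2 limb peaks made up 28.0% around Prrx1, and 25%, 17.6% and 41.7%. The Prrx1 window had the fewest Pbx peaks, 29, against 36, 57 and 34, and the most palate positions, 24, against 23, 16 and 16. Of its Pbx peaks 4 stood in the first 10% of their list, against 7, 22 and 10 in the other windows. Their median place was 41.8% of the Pbx list around Prrx1, and 23.9%, 17.1% and 27.0% in the windows on chromosomes 3, 14 and 9. The intervals of these shares around Prrx1 overlap those of the other windows, and none of these differences was tested.

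**Figure D5:**
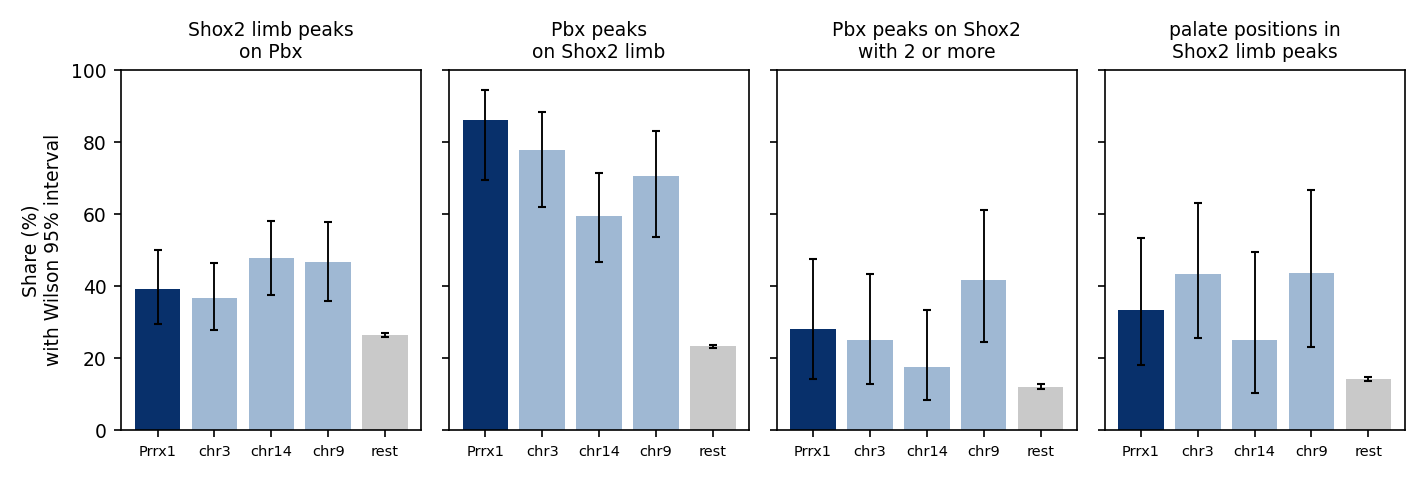
Shares (percent) in the Prrx1 window, in windows of the same width on chromosomes 3, 14 and 9, and in the lists outside the Prrx1 window (rest); whiskers are Wilson 95% intervals, which treat peaks as independent. Pbx peaks on Shox2 in limb reach 86.2% around Prrx1 and 23.3% in the rest of the list.

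The upper edge of the window was at a sparse stretch for all 3 lists. Close to the lower edge lay a Pbx peak and a palate position inside, and a Shox2 limb peak outside. The outermost Shox2 limb peaks inside were at 164.868 and 165.942 Mb, and the nearest outside at 164.797 and 166.049 Mb. For Pbx these were 164.801 and 165.942 Mb inside, and 164.693 and 166.194 Mb outside. The palate positions nearest to the edges were at 164.802 and 165.838 Mb inside, and at 164.723 and 166.205 Mb outside.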

How the data were processed

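The authors deposited peak lists with a chromosome, a start and an end; Bowtie, MACS2 and build mm9 are named per the submitters' processing notes, without versions, settings or cutoffs. Palate entries are 1 bp wide. Starts were raised by 1 to count from 1. Peaks overlapped where they shared at least 1 bp. The place of a peak is its line number as a percent of the list, since file order may be a ranking. The overlap code was tested on simulated data with planted partners. Neighbour names and the promoter came from RefSeq tables of GRCm38.p6, and no coordinate was converted. Sites were named by rule: those in all 3 lists, the 5 highest and 3 widest per list, those in or nearest the gene span, and the 2 fullest bins; other sites were named after their values were seen. The window, rules and lists were chosen with earlier results of these data known. With 1 library per group no test was run. Python 3.11.15, NumPy 2.4.6, SciPy 1.17.1, pandas 2.3.3 and matplotlib 3.10.9 were used.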

Additional observations from a re-analysis of the deposited data

How the results depend on the processing

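Of 24 alternatives, 20 moved the value by less than its interval (or, for counts, by less than 1.5 times). With every peak set to 200 bp, 19.0% of Shox2 limb peaks of the locus lay on Pbx and 55.2% of Pbx peaks lay on Shox2. Shares fall here by construction, since Pbx peaks are cut most. With the first 50% of both limb lists, 27.5% of Shox2 limb peaks lay on Pbx, against 24.4%. A window cut by 200 kb at each end held 1 site of all 3 lists, since the other lies outside it. The other shares ranged from 34.0 to 38.4% for Shox2 on Pbx, 29.2 to 38.9% for palate in Shox2 limb peaks, 10 to 16.0% for palate on Pbx and 76.5 to 88.0% for Pbx on Shox2. Under the same changes of peaks, the whole lists gave 25.2 and 25.9% for Shox2 on Pbx, and 13.7 and 14.9% for palate in Shox2 limb peaks. They gave 9.37 and 12.2% for palate on Pbx, near the locus, and 22.8% for Pbx on Shox2. The alternatives for Pbx on Shox2 were chosen after seeing the data. No paired analysis was possible because the groups hold 1 library each, which also leaves no replicate to omit. With depth unknown, sites below a list's cutoff cannot be told from unbound ones.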

Other observations

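At 2 places of the locus 2 Pbx peaks on Shox2 nearly adjoined. The Pbx peaks chr1:165611944-165612906 and chr1:165612910-165613806 were 3 bases apart, and each held 1 Shox2 limb peak. The Pbx peaks chr1:165665546-165666414 and chr1:165666443-165667840 were 28 bases apart, and the widest Shox2 limb peak of the locus met both. Whether these are separate Pbx sites was not tested.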
